A study of Mus musculus with 8 samples.

Results

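The regions described here are stretches of chromatin that carried called H3K4me1 in both wild-type libraries of haematopoietic stem cells (HSCs) and in neither library of HSCs without the retinoid X receptors RXRα and RXRβ. Overlapping peaks of the 4 H3K4me1 peak lists were merged, and a region was kept if both wild-type lists and neither RXR-deleted list had a peak in it, with 1 bp of overlap enough. This gave 3513 lost regions out of 181242 merged regions, a share of 1.94%. The members were thus chosen by the H3K4me1 peak calls themselves, so their H3K4me1 values are a description with no test. Regions called in all 4 lists numbered 112074, and 3925 regions had the opposite pattern, called in both RXR-deleted lists and in neither wild-type list.

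The cells were HSCs of the gate Lin-cKit+Sca1+CD48-CD150+, sorted from bone marrow of C57BL/6 mice of about 10 months, with 4 or 5 mice pooled and 7500 cells per assay. RXRKO cells carried floxed Rxra and Rxrb and a Vav-driven Cre recombinase, which acts in blood-forming cells and is labelled as having deleted both genes. Wild-type (WT) mice are given as Rxrabfl/fl without Cre in the growth protocol and design text, but as VavCre+; WT in the genotype label. Whether the WT cells carried Cre or floxed alleles is therefore unsettled, and a difference between genotypes cannot be told apart from one in Cre. H3K4me1 was mapped by CUT&RUN in 2 libraries per genotype, and H3K4me3 and H3K27ac in 1 library per genotype each. In CUT&RUN an antibody brings a nuclease to the marked nucleosomes and the released DNA is sequenced. The labels do not say if the H3K4me1 replicates were made from different pools of animals.

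H3K4me1 is found on nucleosomes at enhancers and on the flanks of promoters, H3K27ac at enhancers and promoters in use, and H3K4me3 at promoters. RXRs bind DNA in pairs with other nuclear receptors, among them the retinoic acid receptors (RARs), the liver X receptors (LXRs), which sense oxysterols, the peroxisome proliferator-activated receptors (PPARs), which sense fatty acids, and the vitamin D and thyroid hormone receptors. Each pair recognises copies of the hexamer AGGTCA, and with ligand recruits coactivators to enhancers and promoters of its target genes.

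Most lost regions lay away from genes' starts, where no reference sequence was used here, but 51 of them overlapped the promoter windows of 51 genes, 26 of them protein-coding. A promoter window runs from 250 bases before to 50 bases after a start and was read from RefSeq for GRCm38, the build called mm10. The 5 windows below are shown because they are protein-coding promoters overlapped by a lost region that also carried a WT-alone call of another mark, or holding an AGGTCA hexamer. A sixth such window, of Gm11213 with AGGTCA, is not shown. Only the bases upstream of the start that lie in the lost region are given, 5′ to 3′ on the gene's strand, and capitals mark a searched motif on either strand.
Hrct1, chr4:43726948-43727197, plus strand: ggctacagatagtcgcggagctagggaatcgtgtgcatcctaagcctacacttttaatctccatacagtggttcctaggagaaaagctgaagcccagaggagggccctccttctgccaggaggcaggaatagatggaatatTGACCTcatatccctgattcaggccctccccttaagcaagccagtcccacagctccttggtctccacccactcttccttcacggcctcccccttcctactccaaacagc
Olr1, chr6:129507166-129507415, minus strand: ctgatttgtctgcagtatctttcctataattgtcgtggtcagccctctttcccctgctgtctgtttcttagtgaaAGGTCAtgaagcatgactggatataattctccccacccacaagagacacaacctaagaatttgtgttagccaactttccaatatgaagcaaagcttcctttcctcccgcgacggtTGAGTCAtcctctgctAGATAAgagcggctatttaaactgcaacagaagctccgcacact
Rag2, chr2:101624575-101624711, plus strand: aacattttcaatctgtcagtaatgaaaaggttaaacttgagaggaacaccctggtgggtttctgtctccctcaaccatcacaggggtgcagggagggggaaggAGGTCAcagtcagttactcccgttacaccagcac
Zrsr1, chr11:22971827-22972004, plus strand: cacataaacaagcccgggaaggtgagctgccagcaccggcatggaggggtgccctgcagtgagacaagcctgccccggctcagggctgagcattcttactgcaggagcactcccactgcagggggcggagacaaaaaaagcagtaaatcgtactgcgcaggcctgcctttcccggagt
Pde4b, chr4:102589717-102589842, plus strand: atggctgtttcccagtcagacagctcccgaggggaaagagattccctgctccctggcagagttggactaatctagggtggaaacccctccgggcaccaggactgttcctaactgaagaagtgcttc

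The Hrct1 promoter held the hexamer as TGACCT, its reverse complement, and Rag2 (a subunit of the recombinase that assembles antigen receptor genes) held it as AGGTCA. The Olr1 promoter (a receptor for oxidised lipoprotein) held AGGTCA, the AP-1 motif TGACTCA as its reverse complement, and the GATA motif AGATAA. Over all 55 windows that a lost region overlapped, 11 (20.0%) held AGGTCA on either strand, against 16.3% of all 32851 promoter windows of the same 300 bases. The 55 windows come from 51 genes, and overlapping windows of a gene share bases. The same AGGTCA of Gm41386 is thus counted repeatedly. The GATA motif was in 14.5% against 11.2% of windows, the RUNX motif TGTGGT in 16.4% against 16.8%, TGACTCA in 5.45% against 5.20%, and the E-box CACGTG in 1.82% against 7.15%. Direct copies of AGGTCA 1, 4 or 5 bases apart, which hold AGGTCA themselves, were in 0 of the 55 windows and in 0.0396%, 0.0152% and 0.00913% of all windows. The ETS motif ACCGGAAGT was likewise in 0 of 55, against 1.10% of all windows. With 55 windows these shares are a description of a small set, and a match of letters is not a binding site. The median GC content was 50.7% in the 55 windows and 52.7% in all windows.

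The 8 lists held 47835 to 165128 peaks and give no read totals, so sequencing depth is unknown. The height of each summit in fragments and its local background were solved from 2 deposited values, the authors' fold and -log10 p, for all but 6 or fewer peaks in each H3K4me1 and H3K27ac list. The usual background ran from 4.12 to 7.37 fragments in 7 libraries and was 12.6 in RXRKO H3K4me1 replicate 2, which stands apart. Peak names carry one run tag in both replicate 1 H3K4me1 libraries and another in the other 6 libraries. The labels do not say what a run is. H3K4me3 was called at the starts of 12 of 12 HSC markers in both genotypes, and H3K27ac at 11 in WT and 8 in RXRKO, with Kit, Cd34 and Gata2 called in WT and not in RXRKO. Of 16 markers of lymphoid, myeloid, red and non-blood cells, 3, Klf1 and Syn1 among them, had H3K4me3 at the start in both genotypes, and the lymphoid markers Cd3e and Cd79a had no call. The part of such cells in the results was not tested.

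Lost regions were short, weak and mostly distal. Their median width was 402 bp, with the middle 50% between 316 and 541 bp, against 1056 bp for regions called in all 4 lists and 438 bp for regions called in RXRKO only. Together they covered 1.60 Mb. Of the 3513, 3314 (94.3%) lay over 1 kb from any annotated gene start, against 81.7% of regions called in all 4 lists and 85.7% of all merged regions. Regions called in RXRKO only were about as distal, at 94.9%. Gene bodies held 1937 lost regions (55.1%), against 62.6% of regions called in all 4 lists. They occurred on all 20 chromosomes in the lists, from 1.57% of merged regions on chromosome 18 to 2.46% on the X chromosome, where 117 of 4748 were lost.

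The WT peaks at lost regions were low in both libraries, as were the RXRKO peaks at regions called in RXRKO only. The median summit height was 25 fragments in WT replicate 1 and 33 in WT replicate 2, against 65 and 85 at regions called in all 4 lists. The highest lost summits reached 139 and 175 fragments. The authors' fold over local background had a median of 2.87 in replicate 1 and 2.89 in replicate 2, and was at least 4 in both libraries for 177 regions (5.04%). At regions called in RXRKO only the RXRKO folds had medians of 2.66 and 2.55. By -log10 q, the median lost region stood at percentile 16.0 of the WT replicate 1 list and 20.3 of the replicate 2 list. Only 74 regions (2.11%) stood above the median of both lists. Across the 3513 regions the folds of both WT libraries had a rank correlation of 0.65 and the heights one of 0.77, a description over regions that share the same libraries. The distributions of lost regions and of regions called in all 4 lists overlap, with the lost regions crowded at the low end.

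**Figure D1:**
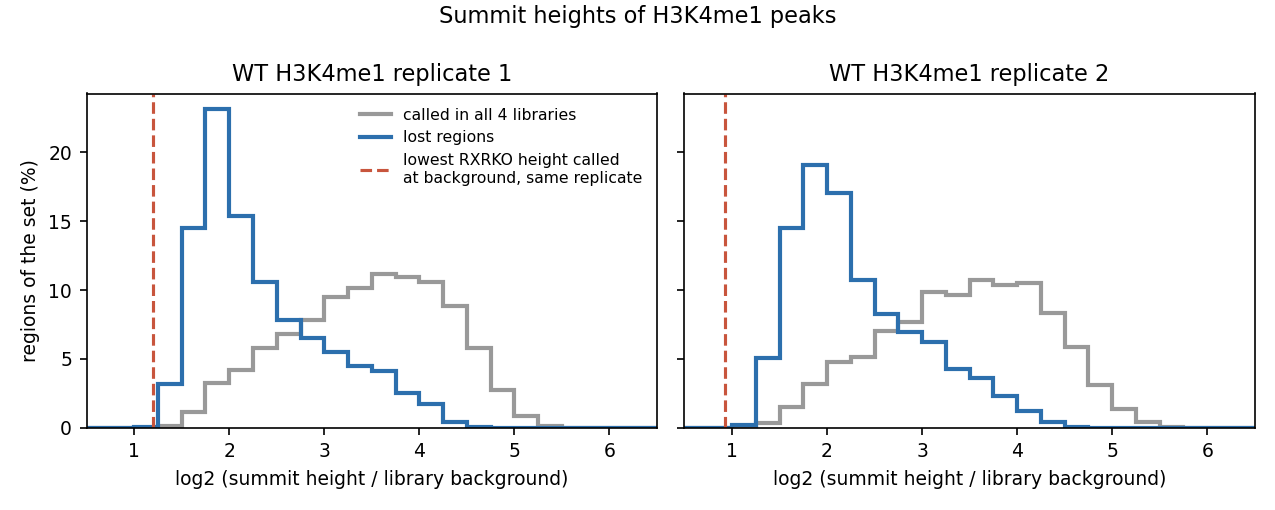
Summit height of H3K4me1 peaks over the usual background of the library, on a log2 scale, for lost regions (blue) and regions called in all 4 lists (grey), as the percentage of each set. The lost regions crowd at the low end in both WT libraries. The dashed line marks the lowest height called at background in the RXRKO library of the same replicate, and the lost regions lie beyond it by their choice.

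The lowest height called at background was 15 fragments in RXRKO replicate 1 and 24 in RXRKO replicate 2. In the WT libraries it was 13 and 16 fragments, on backgrounds 1.16 and 1.71 times lower. The rule asks for a WT call and for no RXRKO call, so these lowest heights enter the choice of the members. Their part in the loss was not tested.

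The rule leaves out any overlap with an RXRKO H3K4me1 peak, so distances to these peaks are a description, with no other set compared. The median distance to the nearest RXRKO H3K4me1 peak was 2522 bp. An RXRKO peak lay within 500 bp of 650 regions (18.5%), and none lay within 10 kb of 510 (14.5%). The WT replicates shared a median of 230 bp of a lost region, 63.9% of its width. Of all lost regions 3201 stood alone, and 312 (8.88%) had another lost region within 10 kb, in runs of up to 3. A group of 974 regions (27.7%) had a local background over 2 times the library's in both WT libraries. These had high summits (median 52 and 64 fragments) but low folds (2.24 and 2.21), and lay nearer RXRKO peaks, at a median of 845.5 bp against 4161 bp for the other 2539. At the rule's boundary, a region at chr7:71470728-71471134 with WT folds of 2.24 and 2.64 was kept 1 bp from an RXRKO peak. A region at chr17:12985198-12985834 with folds of 1.93 and 1.90 was left out for 12 bp shared with one. The same rule with a peak in 1 of the 2 RXRKO lists held 8140 regions, 2878 called in RXRKO replicate 1 and 5262 in RXRKO replicate 2.

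H3K27ac, which did not enter the rule, was rare at lost regions and almost all of what was called there was called in WT. A peak lay at 256 lost regions in WT alone (7.29%, 95% Wilson interval 6.47% to 8.19%) and at 25 in RXRKO alone (0.712%, 0.482% to 1.05%). The corresponding shares over all merged H3K4me1 regions were 8.87% for WT alone and 4.66% for RXRKO alone. Both shares were below those of all regions, that in RXRKO alone by more. Another 54 lost regions had H3K27ac in both genotypes, and 3178 (90.5%) in neither. Among regions with H3K27ac in 1 genotype, 91.1% of lost regions (256 of 281) had it in WT, against 65.5% of all merged regions, 66.7% of regions called in all 4 lists and 11.1% of regions called in RXRKO only. With 1 H3K27ac library per genotype there is no test, and the intervals cover the counting of regions, not the spread between libraries. By replicate, regions lost between the replicate 1 libraries alone had H3K27ac in WT in 70.9% of those called in 1 genotype, and regions lost between the replicate 2 libraries, which share the run tag of the H3K27ac libraries, in 88.0%. The share of lost regions with H3K27ac in WT alone was 3.89% without WT replicate 2, and that in RXRKO alone was 1.07% without WT replicate 2 and 1.64% without RXRKO replicate 2.

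The same tally for H3K4me3 was smaller. A H3K4me3 peak lay at 69 lost regions in WT alone (1.96%) and at 18 in RXRKO alone (0.512%), against 1.33% and 6.82% of all merged regions. It lay at 131 (3.73%) in both genotypes and at 3295 (93.8%) in neither. Among regions with H3K4me3 in 1 genotype, 79.3% of lost regions had it in WT, against 16.3% of all merged regions. Within the replicate 1 libraries this order turned, with 1.26% for WT alone against 1.37% for RXRKO alone. The WT-alone share was 1.17% without WT replicate 2, and the RXRKO-alone share 1.5% without RXRKO replicate 2. At 16 lost regions H3K4me3 and H3K27ac were both called in WT alone, and neither mark was called in either genotype at 3059.

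**Figure D2:**
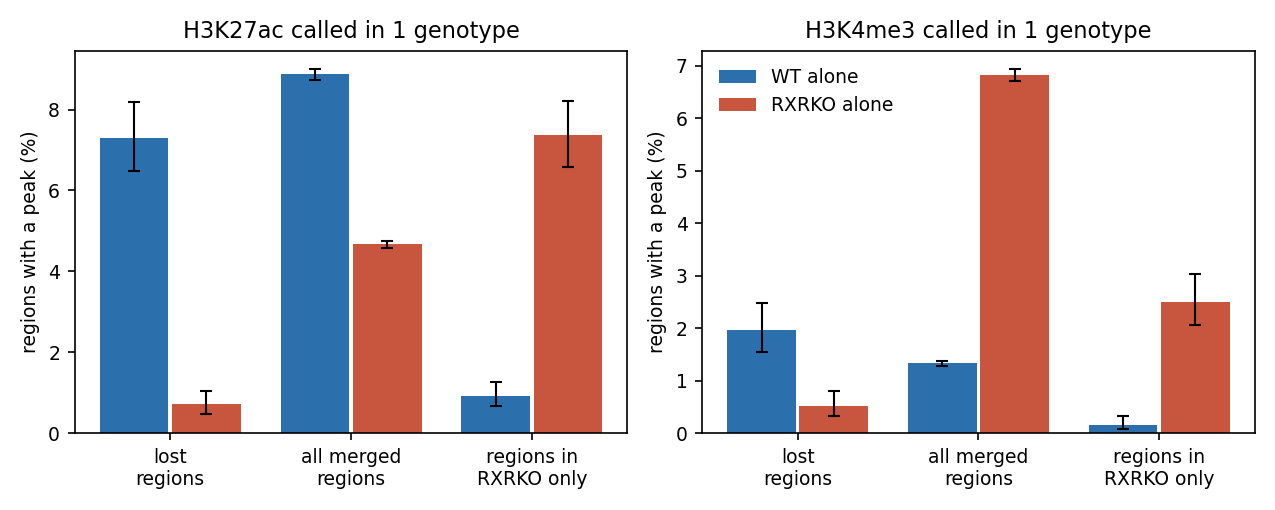
Percentage of H3K4me1 regions with a peak of H3K27ac (left) or H3K4me3 (right) in WT alone (blue) or RXRKO alone (red), for lost regions, all merged regions and regions called in RXRKO only. Lines are 95% Wilson intervals over regions. At lost regions H3K27ac stood at 7.29% in WT alone and 0.712% in RXRKO alone, and at regions called in RXRKO only the order was the opposite.

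WT-alone H3K27ac was more frequent at the stronger lost regions. Lost regions were ranked by the mean of their -log10 q percentiles in the WT lists and cut into 4 equal groups. A region strong in 1 WT list can thus rank high. Of the weakest 879, 26 (2.96%) had H3K27ac in WT alone. The next groups had 46 (5.24%) and 63 (7.18%), and the strongest 878 had 121 (13.8%, interval 11.7% to 16.2%). H3K27ac in RXRKO alone stayed at 4, 11, 5 and 5 regions. The strongest group was also wider, with a median of 532 bp against 359 bp in the weakest, and the part of width in this difference was not tested. Of the 74 lost regions above the median of both WT lists, 33 (44.6%) had H3K27ac in WT alone and 0 in RXRKO alone, which allows a share of up to 4.05%. Of all 64530 merged regions above the median of both WT lists, 13.4% had H3K27ac in WT alone, 4.46% in RXRKO alone and 66.0% in both. The 44.6% was 28.1% when WT replicate 2 was left out and 21.1% within the replicate 1 libraries.

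**Figure D3:**
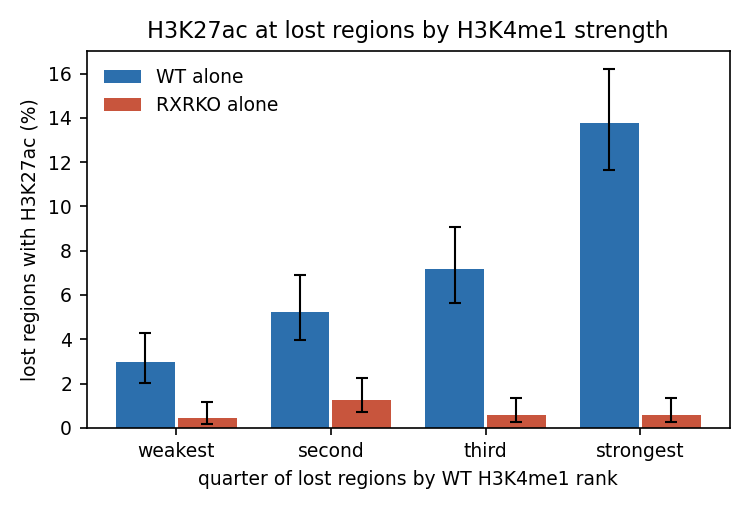
Percentage of lost regions with H3K27ac in WT alone (blue) or RXRKO alone (red), in 4 groups of lost regions from the weakest to the strongest WT H3K4me1. Lines are 95% Wilson intervals over regions. The WT share goes from 2.96% to 13.8% while the RXRKO share does not exceed 1.25%.

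The 256 regions with WT-alone H3K27ac had a median width of 523 bp and median WT H3K4me1 summits of 29.5 and 43 fragments. Their H3K27ac summits had a median of 22 fragments and a median fold of 3.10. The nearest RXRKO H3K27ac peak was at a median distance of 6905.5 bp, within 500 bp for 12 of the 256 (4.69%). The 25 with H3K27ac in RXRKO alone lay closer to calls of the other genotype, with a WT H3K27ac peak within 500 bp of 11. Leaving out lost regions within 500 bp of an RXRKO H3K4me1 peak, 221 of 2863 had H3K27ac in WT alone and 13 in RXRKO alone.

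Ranked by the lower of its -log10 q percentiles in the WT lists, the strongest lost region lay in Scrg1, a gene first described in scrapie-infected brain and in cartilage formation, at chr8:57468109-57469319. It was 1211 bp wide, with summits of 98 and 113 fragments and folds of 10.7 and 8.77 in the WT replicates. WT H3K27ac was called there at a fold of 6.84 and a height of 47 fragments, and the nearest RXRKO H3K27ac peak lay 4730 bp away. Sap30, which encodes a subunit of the Sin3 histone deacetylase complex, lies beside Scrg1, and the same 3 lost regions fall within 20 kb of either gene. The map of called peaks shows H3K4me1 called in all 4 libraries on both sides of this region.

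**Figure D4:**
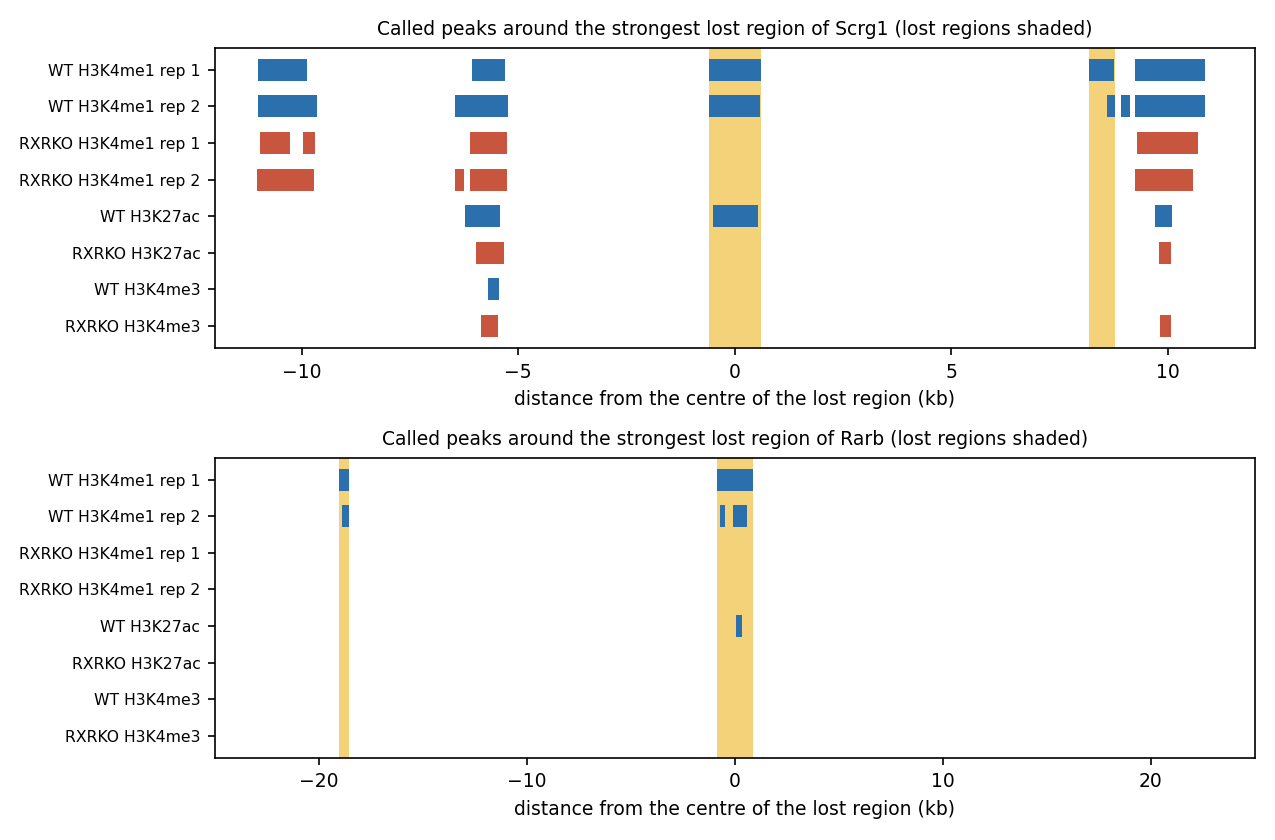
Called peaks of the 8 libraries around the strongest lost region of Scrg1 (upper) and of Rarb (lower), by distance in kb from the region's centre. Bars are peaks in WT (blue) and RXRKO (red), and shaded bands are lost regions. Around Scrg1 the RXRKO libraries have peaks on both sides of the empty central band, and around Rarb no RXRKO peak of any mark lies within 25 kb.

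Of the 10 strongest lost regions 8 had H3K27ac in WT alone, and the other 2, near P4ha2 and Abhd12b, had it in neither genotype. A region 98842 bp from Smad1, a transducer of bone morphogenetic protein signals, lay at chr8:79498271-79499277 with WT folds of 9.06 and 9.41. Its WT H3K27ac fold of 7.66 was the highest of these 10, and no RXRKO H3K27ac peak lay within 45137 bp of it. A region near Impg1, a proteoglycan gene of the retina, at chr9:80537272-80538449, had folds of 10.9 and 10.2 and a WT H3K27ac fold of 3.99. A region in Smarca2, the BRM ATPase of the SWI/SNF chromatin remodeller, at chr19:26696489-26697703, had folds of 7.76 and 9.09 and a WT H3K27ac fold of 2.77. The region in Rgsl1 at chr1:153793153-153794752 was 1600 bp wide, with summits of 97 and 115 fragments. These are distal positions, 7353 to 98842 bp from the nearest start, and only the Ttll11 region lay at a start, 486 bp away, with summits of 131 and 143 fragments.

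Acot2 and Zfp608 had nearby lost regions with both other marks in WT alone. Acot2 encodes a mitochondrial acyl-CoA thioesterase, and its neighbour Acot1 the cytosolic form, both known targets of PPARα. The region at chr12:83999326-84000040, 5448 bp from Acot2, had H3K4me1 folds of 8.98 and 7.48, a WT H3K27ac fold of 5.90 and a WT H3K4me3 fold of 4.10. A second lost region at chr12:83998477-83999166, just before it, had H3K4me1 folds of 6.03 and 6.93 and no other mark. The nearest RXRKO peaks were 9118 bp away for H3K27ac and 8994 bp away for H3K4me3. The region 34640 bp from Zfp608, a zinc finger gene, was 2107 bp wide, with a WT H3K4me3 fold of 6.64 and a WT H3K27ac fold of 3.34. It was exceeded in width by a region of 2175 bp at chr6:10144727-10146901, far from any gene and closest to Nxph1, which also had both marks in WT alone. There the WT libraries differed, with folds of 3.47 and 8.95. The other wide regions lay in Gemin2, of the complex that assembles splicing particles (1761 bp, with WT-alone H3K27ac), and in Mme, the neutral endopeptidase CD10 (1787 bp). The Mme region had folds of 7.25 and 10.8, no other mark, and no RXRKO H3K4me1 peak within 80387 bp.

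Among the strongest WT-alone H3K27ac peaks at lost regions, some lay at or near starts beside RXRKO calls. The Esyt2 region (a tether of the endoplasmic reticulum to the plasma membrane) had a WT H3K27ac fold of 6.65 and H3K4me3 in both genotypes. An RXRKO H3K27ac peak lay 760 bp from it. At Sms, the spermine synthase gene, the WT H3K27ac fold was 6.43 and an RXRKO H3K27ac peak lay 58 bp away. At Fam222b the fold was 4.68 and that distance 240 bp, and at 2900026A02Rik they were 4.52 and 399 bp. By contrast the region in Atp8b4, a phospholipid flippase gene, at chr2:126324812-126326158, had a WT H3K27ac fold of 6.80 and the nearest RXRKO H3K27ac peak 37079 bp away. Its WT H3K4me1 folds were unequal, 2.87 in replicate 1 and 8.24 in replicate 2.

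The strongest WT-alone H3K4me3 peaks at lost regions all bordered RXRKO H3K4me3 peaks. They lay in Stil, needed for centriole duplication, Mief1, a mitochondrial fission factor, Nsun2, an RNA cytosine methyltransferase, and Kif15, a mitotic kinesin. Their WT H3K4me3 summits reached 287 to 399 fragments. Each region lay 596 to 903 bp from a gene start and had an RXRKO H3K4me3 peak 19 to 69 bp away. Of all 69 such regions, 17 (24.6%) had an RXRKO H3K4me3 peak within 500 bp. The strongest H3K27ac calls in RXRKO alone likewise lay close to WT H3K27ac peaks, 152 to 173 bp away. They were in Nsa2, a ribosome assembly gene, with an RXRKO H3K27ac fold of 6.41, at a start within the overlapping lectin receptor genes Clec12b and Clec1a with 4.81, and in Arpc3, an actin nucleation subunit, with 3.59.

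At the promoters shown above, the Hrct1 region had WT H3K4me1 folds of 4.44 and 4.63 and a WT-alone H3K27ac fold of 3.82. The Zrsr1 region, at a splicing factor retrogene, had WT folds of 2.67 and 2.24, a WT-alone H3K27ac fold of 3.76 and H3K4me3 at 4.00 in WT and 3.89 in RXRKO. The Pde4b region, at a cyclic AMP phosphodiesterase gene, had a WT-alone H3K4me3 fold of 6.79 and WT H3K4me1 folds of 1.98 and 2.2. The Rag2 region had summits of 81 and 89 fragments over a high local background, folds of only 1.60 and 1.69, and no other mark. The Olr1 region had summits of 18 and 25 fragments and no other mark.

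Lost regions fell within the body or 20 kb of 2831 of 21887 protein-coding genes (12.9%). Of these 2333 had a single lost region and 498 had more. Shisa9, an auxiliary subunit of AMPA-type glutamate receptors, had the most, 8 of its 30 merged regions, and 0 called in RXRKO only. The 8 were 319 to 689 bp wide with WT replicate 1 folds of 2.44 to 3.93, and 2 had H3K27ac in WT alone. Itga9 (integrin α9) had 6 of 65, Arid1b (a subunit of the BAF remodeller) 6 of 141, Psd3 (an exchange factor for the GTPase ARF6) 6 of 80 and Lrmda 6 of 125. Relative to gene length, Tagap1 had 4 of 7 and Fam180a 4 of 6 merged regions lost. Of the 4 Tagap1 regions 3 are shared with Rnaset2b, and near-identical copies around these genes on chromosome 17 make the regions' read placement uncertain. Windows differ in length, and that of Lrmda spans 1076.59 kb.

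Of 33 targets of RXR pairs, 13 (39.4%) had a lost region, and 3 (9.09%) a region called in RXRKO only. For all protein-coding genes these shares were 12.9% and 15.0%. Each of the other gene lists below also had a lost region at more than 12.9% of its genes. Those shares ran from 14.3% for the MYC network to 48.0% for lymphoid genes, with 45.7% for HSC identity. A high share of genes is thus not particular to the RXR targets. Counted by region, 21 of 429 merged H3K4me1 regions near these targets were lost (4.90%) and 3 were called in RXRKO only (0.699%), against 1.81% and 2.08% near all genes. The median window was 62.5 kb, against 57.2 kb for all genes. The list was chosen with earlier results of these data known, and no test was made on it. With a fold of at least 4 asked of every peak, 8 of the 33 genes had a lost region, against 18.1% of all genes. Within the replicate 1 libraries alone 25 had one, against 45.3% of all genes, and within replicate 2 alone 24, against 44.2%. Without WT replicate 1 the count was 21, against 36.2% of all genes, and without WT replicate 2 also 21, against 27.4%.

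Of these genes Rarb had the most lost regions. Rarb, which encodes RARβ and is itself induced by retinoic acid, had 4 of 67 lost and 1 called in RXRKO only. Its strongest, at chr14:16713610-16715343 within the gene, was 1734 bp wide, with summits of 49 and 45 fragments, folds of 7.55 and 5.49, and H3K27ac in WT alone. A second, at chr14:16695459-16695940, had folds of 4.38 and 4.18 and no other mark. Cyp26b1, which degrades retinoic acid, had 2 of 12 lost, one of them 925 bp wide with folds of 4.07 and 2.90. Dhrs3, a retinaldehyde reductase, had 2 of 17, with summits of 97 to 116 fragments and folds of 2.14 to 2.58 over a high local background. Cd38, an NAD-consuming enzyme induced by retinoic acid, had 2 of 11.

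Among targets of LXR and PPAR, Mylip, which sends the LDL receptor for degradation, had 2 of 13 lost, one beside the gene with folds of 4.23 and 3.23 and one inside it with H3K27ac in WT alone. The cholesterol exporters Abca1 and Abcg1 and the lipogenic factor Srebf1 had 1 each, with WT folds between 1.8 and 2.97. Cpt1a, which admits fatty acids to mitochondria, had 2 of 24, both within 1243 bp of a start, and Acadl and Plin2 had 1 each. Pdk4, a classic PPAR target, had 0 of 3 regions lost. The receptor genes themselves had none: 0 of 28 merged regions were lost at Rxra, 0 of 9 at Rxrb and 0 of 6 at Rxrg.

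**Figure D5:**
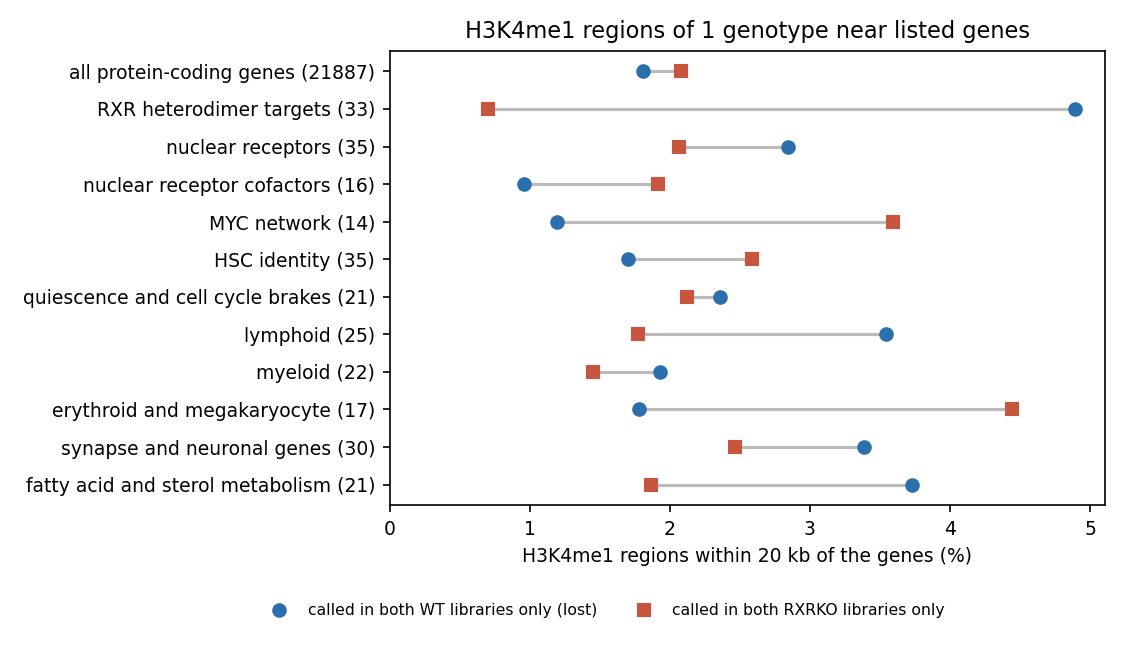
Percentage of the merged H3K4me1 regions within 20 kb of listed genes that were called in both WT libraries only (blue circles) or in both RXRKO libraries only (red squares), with the number of genes in brackets. The RXR targets have the widest gap, 4.90% against 0.699%, and the order is the other way for all genes and for the receptor cofactor, MYC, HSC identity and erythroid lists. The lists were chosen with earlier results known and were not tested.

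In the list of nuclear receptor genes, which includes Rarb, 22 of 774 merged regions were lost (2.84%, against 1.81% near all genes) and 2.07% were called in RXRKO only. Rora, an orphan receptor gene spanning many regions, had 5 lost and 6 called in RXRKO only out of 137. Esr1 and Thrb, for oestrogen and thyroid hormone receptors, had 3 each of 47 and 40, and the strongest in Thrb had folds of 3.53 and 4.85. Pparg had 2 of 23. Receptor cofactors had fewer, 5 of 521 regions (0.960%), of which 2 were in Ppargc1a, the coactivator of mitochondrial genes.

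Genes of HSC identity held 25 lost regions, 1.7% of their 1469, close to the 1.81% of all genes, and 38 called in RXRKO only (2.59%). Mecom, a transcription factor needed by HSCs, had 3 lost and 7 in RXRKO only out of 163. Kit, the stem cell factor receptor, had 2 of 35 lost and 0 in RXRKO only, and Tek, the angiopoietin receptor, had 2 of 18, one of them 936 bp wide with folds of 4.68 and 3.46. Fgd5 had 2 of 30 and Mllt3 2 of 95. Lost regions of these genes were weak, with WT replicate 1 folds between 1.55 and 4.68. Cell cycle brakes had 2.36% of regions lost and 2.12% in RXRKO only. There Cdkn2c, an inhibitor of the cyclin D kinases, had 2 lost regions beside its body, one with H3K27ac in WT alone and one with it in RXRKO alone, and Tgfbr2 had 2.

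Lymphoid genes had a lost region at 12 of 25, and 14 of 395 regions were lost (3.54%) against 1.77% called in RXRKO only. Near all genes the shares were 12.9% of genes, and 1.81% and 2.08% of regions. Dntt, the enzyme that adds bases at antigen receptor junctions, had 2 of 11, at chr19:41038941-41039686 with folds of 3.61 and 4.04 and at chr19:41038144-41038551 with folds of 2.60 and 2.66. Ebf1, the B-lineage factor, and Prkcq, a T-cell kinase, had 2 each of 32 and 30. Rag2 had 2, of which the one at its promoter also lies within 20 kb of Rag1, and Cd3e and Cd3g share 1. Of the 14, 1 had H3K27ac in WT alone, beside Cd79b. Myeloid genes had 4 of 22 with a lost region and erythroid and megakaryocyte genes 4 of 17, at 1.93% and 1.78% of regions, close to the 1.81% of all genes.

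Synaptic genes, which are long, had lost regions at 10 of 30 and regions called in RXRKO only at 13 of 30, at 3.39% and 2.47% of their merged regions against 1.81% and 2.08% near all genes. Of the lost ones, Shisa9 and the AMPA receptor subunit gene Gria3 gave 13 of 22. Gria3 had 5 of 26 lost with WT replicate 1 folds of 2.03 to 3.62. Fatty acid and sterol genes had 6 of 161 lost (3.73%), of which Acot1 and Acot2 share 2 and Cpt1a has 2. The MYC network had 2 of 167 (1.20%), 1 each near Max and Mycn, against 3.59% called in RXRKO only, and the Max region had H3K27ac in WT alone.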

How the data were processed

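Each of the 8 libraries has 1 deposited peak list. The authors trimmed with cutadapt 1.7.1, used Bowtie2 2.2.5 for alignment to mm10 and MACS3 for peaks, per the submitters' processing notes. Any control library, spike-in, duplicate handling and MACS3 version were not given in the sources used here. For each peak the deposited score equals its -log10 q times 10 without decimals. In the authors' fold column each value was read as a ratio of summit height to local background, with 1 added to each. The deposited -log10 p and -log10 q come from the peak caller, with q under about 0.05. The other deposited column, the summit offset, gave no result.

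Heights and backgrounds were solved from the authors' fold and -log10 p, assuming whole fragments and a Poisson tail. For all recovered heights the -log10 p computed back was within a relative 0.001 of the deposited value. No height was recovered for 5582 RXRKO and 344 WT H3K4me3 peaks. This was tested on simulated data, as were the interval steps. Peaks of the 4 H3K4me1 lists that share at least 1 bp were merged in Python 3.11.15. A mark was called in a region when its peak overlapped it by 1 bp. Gene starts came from RefSeq promoter tables of GRCm38, and for 4395 protein-coding genes without an entry both annotated ends were used. Motif counts planned for distal regions were replaced by counts in the promoter windows, since no genome sequence was used here.

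The members, the gene lists and the rules were chosen with earlier results of these data known. Regions were named by rule: the 10 strongest, the 8 and 4 with the strongest WT-alone H3K27ac and H3K4me3, the 4 widest, the 3 strongest with RXRKO-alone H3K27ac, genes with the most lost regions or the most per length, and list genes with 2 or more. Some genes that these rules name are not reported here. Genes with 1 lost region, the boundary regions, the receptor genes and the promoters shown were chosen after their values were seen. Intervals, where given, are 95% Wilson intervals, and most shares carry none. The upper bound of 4.05% among 74 regions is not such an interval, but a share of 3 regions out of 74. No p-value was computed, because the calls chose the members and the other marks have 1 library per genotype. Alternatives were cuts on fold (4) and -log10 q (5), equal numbers of top peaks, 50% cover, 200 bp stretches, a 500 bp gap to RXRKO peaks, single replicates, and each library left out.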

Additional observations from a re-analysis of the deposited data

How the results depend on the processing

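The count of 3513 lost regions stayed within 1.5 times under cuts on fold or -log10 q, equal peak numbers, 50% cover, stretches, the 500 bp gap and joined touching peaks, the last chosen after seeing the data. It was 17945 within replicate 1 alone and 17604 within replicate 2 alone, and 6468 to 12875 with 1 library left out. H3K27ac in WT alone was 4.88% at a -log10 q of at least 5, 4.81% with equal peak numbers, 5.16% with 50% cover, 9.99% over stretches, 4.70% and 6.00% within replicates 1 and 2, and 3.89% to 8.21% with a library left out. H3K27ac in RXRKO alone was 1.87% at a fold of at least 4, 0.335% at the -log10 q cut, 0.454% with the 500 bp gap, 1.17% over stretches, 1.93% within replicate 1, and 0.598% to 1.64% with a library left out. H3K4me3 in WT alone was 3.36% at the fold cut, 3.20% over stretches, 1.26% within replicate 1, and 1.17% to 1.96% with a library left out. H3K4me3 in RXRKO alone was 2.19% at the fold cut, 0.173% with equal peak numbers, 1.37% within replicate 1, and 0.435% to 1.5% with a library left out. The share over 1 kb from starts was 87.6% at the fold cut, 96.1% with the 500 bp gap, 91.0% and 93.0% within replicates 1 and 2, and 91.0% to 93.7% with a library left out, and 80.6% lay over 5 kb away. H3K27ac was more often called in WT alone than in RXRKO alone in 13 of 13 alternatives, by 2.44 to 17 times, and H3K4me3 in 12 of 13, the exception being replicate 1 alone. Over all merged regions H3K27ac was also more often called in WT alone, 8.87% against 4.66%. H3K4me3 was less often so there, 1.33% against 6.82%. All alternatives used the same H3K27ac and H3K4me3 libraries. RXR target genes with a lost region numbered 8 of 33 at the fold cut and 8 at the -log10 q cut, where all genes stood at 18.1% and 10.3%, and 15 to 21 with a library left out, against 22.1% to 36.2% of all genes. The WT-alone H3K27ac share above the median of both WT lists was 12.4% at the fold cut, 28% at the -log10 q cut, 14.7% with 50% cover, 22.0% over stretches, 21.1% and 33.5% within replicates 1 and 2, and 28.1% to 50.3% with a library left out. The causes were not tested. No paired analysis was possible because no result comes from a test across samples, and the values within each replicate number above stand in for it. Depth is unknown, so the absence of a call is not the absence of a mark.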
